A study of Mus musculus with 8 samples.

Results

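The genes described here are the constant regions of mouse immunoglobulin: the 8 heavy-chain genes Ighm, Ighd, Ighg3, Ighg1, Ighg2b, Ighg2c, Ighe and Igha, and the kappa light-chain gene Igkc. They were taken by symbol, by matching the Ensembl identifiers of the count table to gene names, and make up 9 of the 52636 genes counted. RNA was sequenced from whole spleens of C57BL/6 mice aged 6 weeks, either wild type or carrying the R527C mutation of Lmna, the gene of the nuclear lamins A and C. The 4 groups were wild type without irradiation (day 0), Lmna R527C mutants without irradiation (day 0), wild type 7 days after 4 Gy, and Lmna R527C mutants 7 days after 4 Gy, with 2 libraries in each. The sources used here do not say how the R527C allele was made or whether mice carried 1 or 2 copies of it. According to the series' design text, the mutant line was studied for senescence.

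An antibody is built of heavy chains and light chains, and its class is set by which heavy constant gene is joined to the rearranged variable segment. Resting naive B cells splice the same primary transcript to Ighm and Ighd and carry IgM and IgD on their surface. After stimulation, class switch recombination deletes the DNA between the variable segment and a downstream constant gene, and the cell then makes an IgG subclass, IgE or IgA. Plasma cells, the secreting end stage of the lineage, hold far more immunoglobulin mRNA per cell than resting B cells, so in whole spleen the constant genes reflect both kinds of cell. In bulk RNA, fewer cells of a type and less RNA per cell cannot be told apart.

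The 8 heavy constant genes lie on the minus strand of chromosome 12 in GRCm38, in the order of transcription: Ighm (chr12:113418558-113422730), Ighd (chr12:113406604-113416324), Ighg3 (chr12:113356224-113361232), Ighg1 (chr12:113325240-113330523), Ighg2b (chr12:113302965-113307933), Ighg2c (chr12:113285325-113288932), Ighe (chr12:113269260-113273248) and Igha (chr12:113254830-113260236). Igkc stands apart from them at chr6:70726435-70726966 on the plus strand, within the span of the noncoding gene Gm30211 on the same strand. All 9 are annotated as immunoglobulin constant genes, and no other annotated gene overlaps the heavy ones. The IgG subclasses differ most visibly in the hinge, the flexible stretch between the antigen-binding arms and the stem, whose cysteines tie the heavy chains together. Their hinge exons are printed here because the subclasses differ there in length and in cysteine codons. Each is exon 2 of its gene, written 5′ to 3′ along the transcript, from GENCODE M21 (GRCm38), with in-frame TGT and TGC codons, which encode cysteine, in capitals.
Ighg3: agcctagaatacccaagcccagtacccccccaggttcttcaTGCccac
Ighg1: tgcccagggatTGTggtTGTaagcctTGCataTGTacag
Ighg2b: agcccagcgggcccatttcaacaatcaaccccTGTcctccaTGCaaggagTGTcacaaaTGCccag
Ighg2c: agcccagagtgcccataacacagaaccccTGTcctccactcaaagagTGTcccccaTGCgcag
The Ighg3 hinge exon (chr12:113360529-113360576) is 48 bases long with 1 such codon, and that of Ighg1 (chr12:113329844-113329882) is 39 bases long with 4. The hinge exon of Ighg2b (chr12:113307261-113307326) has 66 bases and 4 cysteine codons, and that of Ighg2c (chr12:113288263-113288325) has 63 bases and 3.

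Ighg2b and Ighg2c are the closest pair, with 85.9% identity over their aligned secreted coding sequences. The other IgG pairs share 75.3% to 77.4%, and pairs that are not both IgG share 52.7% to 64.0%. The longest exact stretch that Ighg2b and Ighg2c have in common runs for 78 bases in exon 3 (chr12:113306869-113306946 in Ighg2b and chr12:113287869-113287946 in Ighg2c, both on the minus strand), and is shown because a read inside it cannot tell these genes apart.
shared stretch: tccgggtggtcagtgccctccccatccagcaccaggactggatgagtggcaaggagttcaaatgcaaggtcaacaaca
Of all windows of 50 bases in the annotated transcripts, 5.49% of those of Ighg2c, 4.15% of Ighg2b, 1.58% of Ighg3 and 0.393% of Ighg1 occur in another of the 9 genes, and for the other members no window does. At 100 and 150 bases no window is shared. The sources used here do not give the read length or the handling of reads with several matches, so values of Ighg2b and Ighg2c are uncertain to that extent.

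The libraries held 12100784 to 19455470 gene counts, of which the 9 members took 0.276% to 2.38%. The labelled tissue was checked against its markers: the B cell gene Cd79a, the T cell gene Cd3e and the red pulp macrophage gene Vcam1 all had counts in every library. A substitution cannot be read from gene counts, so the genotype labels were not checked. Replicates correlated at r = 0.982 and 0.988 in the unirradiated groups, 0.942 in irradiated wild type, and among the irradiated mutants 0.877 (log2 CPM, across genes). Replicate 1 of the irradiated mutants stood apart: Cd79a, which carries signals from surface immunoglobulin, stood at 23.5 CPM there and at 295 CPM in replicate 2. T cell transcripts were low there too: the mean log2 CPM of 16 T cell genes, 6.65 in replicate 2, was 3.68 in replicate 1. The same library held 312 CPM of the liver gene Alb, which was at 0 in the 4 unirradiated libraries and at 38.6 to 70.6 CPM in the other irradiated ones. Fat genes were highest in its partner, with Cfd at 429 CPM. Of 11 genes of neighbouring pancreas, fat and liver, 7 passed the filter, and their summed level was 33.1 and 130.1 CPM in wild type against 29.3 and 80.1 CPM in mutants on day 0, and 109 and 196 CPM in wild type against 502 and 963 CPM in mutants on day 7. Their part in the results was not tested. All 4 unirradiated libraries held the Y-linked transcripts Ddx3y, Eif2s3y, Kdm5d and Uty, and all 4 irradiated ones held Xist and no counts of these, so irradiation, day and sex cannot be told apart here. Results that rest on the irradiated mutants are therefore given without each of their libraries where this matters.

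Ighm, the constant gene of IgM, was at 3189 and 3511 CPM in wild type against 3305 and 3795 CPM in mutants on day 0, and 614 and 1933 CPM in wild type against 1961 and 1537 CPM in mutants on day 7. The unirradiated libraries of both genotypes lay close together, and all 4 irradiated libraries were below them. CPM are counts relative to library sizes scaled by TMM. The mutant-to-wild-type difference without irradiation was a log2 fold change of 0.08 ± 0.54 (SE) with a 95% interval from -1.17 to 1.34. After irradiation Ighm stood at a log2 fold change of -1.40 ± 0.55 in wild type (edgeR unadjusted p = 0.0357, adjusted p = 0.262) and -1.02 ± 0.55 in mutants (adjusted p = 0.306).

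Ighd, the constant gene of IgD and a marker of mature naive B cells, was at 693 and 786 CPM in wild type against 394 and 383 CPM in mutants on day 0, and 107 and 156 CPM in wild type against 4.32 and 113 CPM in mutants on day 7. Both unirradiated mutant libraries held about the same level, below both wild-type ones, and every irradiated library was lower still. The lowest value, in replicate 1 of the irradiated mutants, rested on 37 counts. Without irradiation the log2 fold change of mutants against wild type was -0.93 ± 1.06 in the fit of all 8 libraries (edgeR adjusted p = 1) and -0.90 ± 0.18 in a fit of the 4 unirradiated libraries alone (adjusted p = 0.0237). Here and below, the fit of 4 libraries has little to estimate the spread from, so its SEs and p-values are less secure. Day 7 against day 0, the log2 fold change of Ighd was -2.49 ± 1.11 in wild type and -2.72 ± 1.12 in mutants (edgeR adjusted p = 0.298 and 0.210). Without replicate 1 of the irradiated mutants, which leaves 1 library in that group, the second of these was -1.83, and without replicate 2 it was -6.64.

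Because Ighm and Ighd come from the same primary transcript, their ratio was also taken in each library. Ighd counts per 100 Ighm counts numbered 21.7 and 22.4 in wild type against 11.9 and 10.1 in mutants on day 0, and 17.4 and 8.08 in wild type against 0.220 and 7.38 in mutants on day 7. Within each irradiation state both mutant libraries lay below both wild-type ones, although the genotypes overlapped when all 8 libraries were pooled. The mutant mean was lower by 11.0 without irradiation and by 8.96 after it. Over all 8 libraries, permuting genotype within irradiation state gave an exact two-sided p of 0.0556, the smallest this design allows (0.111 adjusted over 6 ratios). The ratios were tested after their values had been seen.

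**Figure D1:**
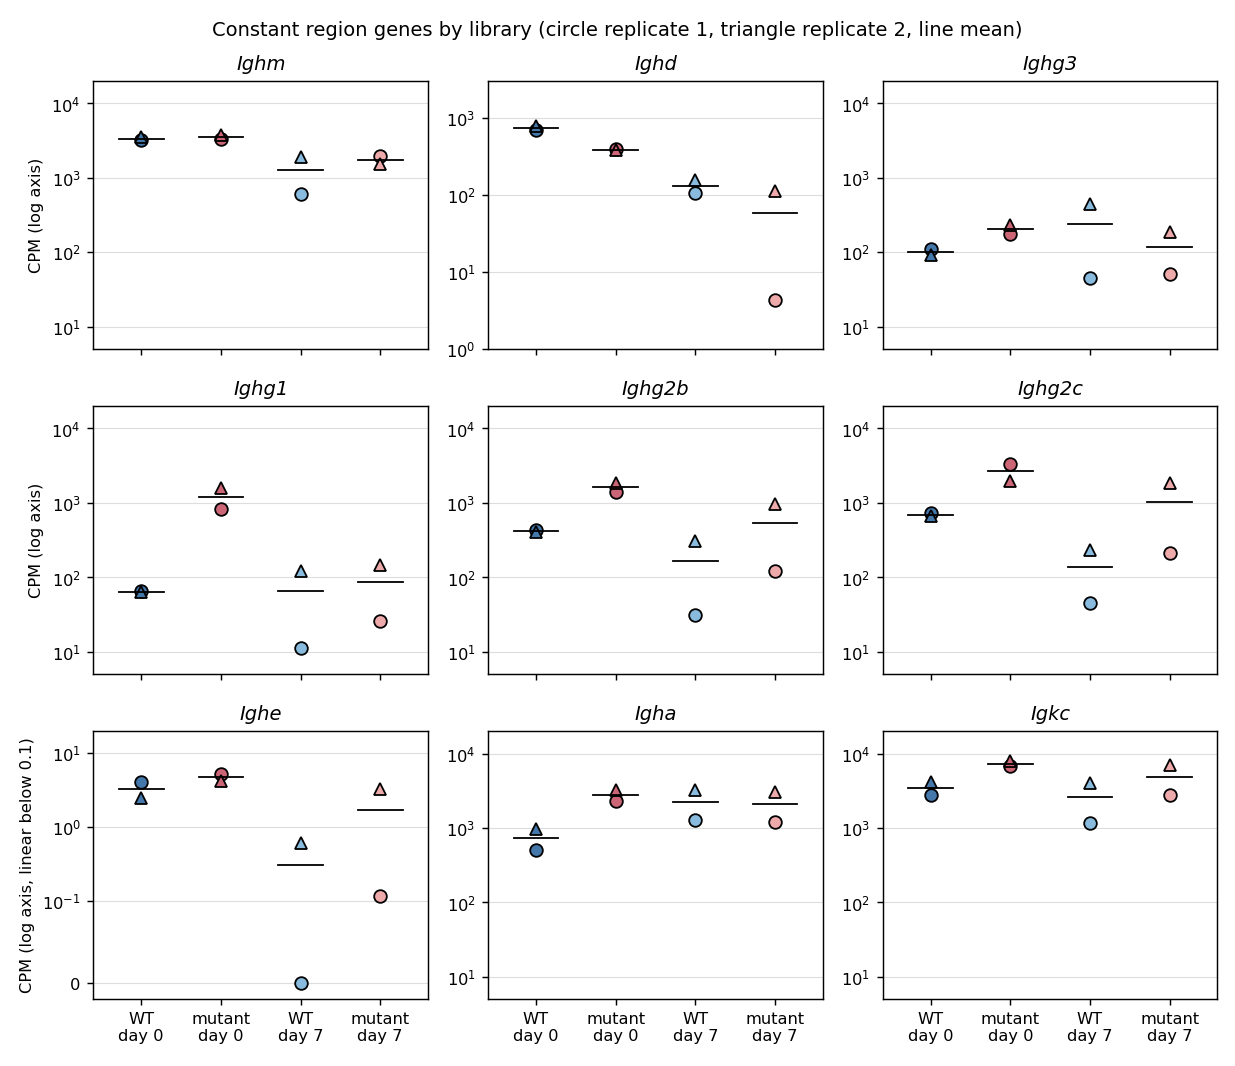
Level of each constant gene in every library, in CPM on a log axis (linear below 0.1 for Ighe), with 1 panel a gene. Circles are replicate 1, triangles replicate 2 and lines the group means. In the unirradiated mutants Ighg1, Ighg2b, Ighg2c and Igha lie above wild type and Ighd below it, and in the irradiated groups most pairs of replicates lie far apart.

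Ighg1, the IgG subclass that interleukin 4 favours, had the widest gap between genotypes among the 9 genes without irradiation. It was at 65.1 and 63.1 CPM in wild type against 819 and 1605 CPM in mutants on day 0, and 11.4 and 121 CPM in wild type against 26.4 and 146 CPM in mutants on day 7. Both unirradiated mutant libraries were far above all 6 others, though they differed from each other (mean 1212 ± 556 CPM, SD, n = 2, against 64.1 ± 1.45 CPM in wild type). The fitted log2 fold change was 4.24 ± 1.19, or 18.9-fold, with an edgeR unadjusted p of 0.00756 and an adjusted p of 1. With only the unirradiated libraries fitted it was 4.27 ± 0.31, with an adjusted p of 2.48e-04. After irradiation the genotypes overlapped and the log2 fold change was 0.38 ± 1.05. The difference between these genotype effects, the interaction, was -3.86 ± 1.53 (edgeR unadjusted p = 0.0358, adjusted p = 0.99997).

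Ighg2b, whose product fixes complement, was at 429 and 412 CPM in wild type against 1425 and 1846 CPM in mutants on day 0, and 31.4 and 306 CPM in wild type against 123 and 956 CPM in mutants on day 7. The unirradiated genotypes were well separated and the irradiated ones overlapped. Its log2 fold change in mutants was 1.96 ± 1.11 without irradiation (edgeR adjusted p = 1, and 0.00113 in the fit of the 4 libraries alone) and 1.68 ± 1.10 after it. Ighg2c, the subclass that interferon gamma favours in C57BL/6 mice, was at 725 and 662 CPM in wild type against 3344 and 2000.0 CPM in mutants on day 0, and 45.5 and 232 CPM in wild type against 216 and 1833 CPM in mutants on day 7. Without irradiation both mutant libraries exceeded wild type, and after it replicate 2 of the mutants was high while replicate 1 lay within the wild-type range. The log2 fold change was 1.95 ± 1.02 without irradiation (edgeR adjusted p = 1, and 0.00441 in the fit of the 4 libraries alone). After irradiation it was 2.89 ± 1.06 (unadjusted p = 0.0261, edgeR adjusted p = 1). Averaged over both states it was 2.42 ± 0.73 (unadjusted p = 0.0111, adjusted p = 0.817). Leaving out replicate 1 of the irradiated mutants, so that 1 library remained in that group, gave 3.77 after irradiation, and leaving out replicate 2 gave 0.58.

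Ighg3, a subclass typical of responses to carbohydrate antigens, was at 113 and 92.98 CPM in wild type against 178 and 232 CPM in mutants on day 0, and 45.3 and 444 CPM in wild type against 50.6 and 189 CPM in mutants on day 7. The highest of the 8 was a wild-type library after irradiation, and its partner was the lowest. Without irradiation the log2 fold change in mutants was 0.99 ± 0.95 (edgeR adjusted p = 1, and 0.0151 in the fit of the 4 libraries alone), and after irradiation it was -1.03 ± 0.95. Ighe, the constant gene of IgE, had the fewest counts of the 9 genes in every library, with 94 and 39 counts in wild type against 120 and 90 in mutants on day 0, and 0 and 7 in wild type against 1 and 59 in mutants on day 7. At 0 counts, up to 3 counts or 0.270 CPM remain possible in that library, a limit that covers counting error only. Its mutant-to-wild-type log2 fold change was 0.51 ± 1.14 without irradiation (edgeR adjusted p = 1), with a 95% interval from -2.12 to 3.14.

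Igha, the constant gene of IgA, the class of mucosal surfaces, was at 507 and 973 CPM in wild type against 2317 and 3218 CPM in mutants on day 0, and 1289.8 and 3193 CPM in wild type against 1211 and 3023 CPM in mutants on day 7. The unirradiated wild-type libraries were the lowest of all 8, and the other 3 groups overlapped one another. Without irradiation the log2 fold change in mutants was 1.90 ± 0.65 (edgeR unadjusted p = 0.0192, adjusted p = 1), and 1.93 ± 0.32 in the fit of the 4 libraries alone (adjusted p = 0.00984). After irradiation the log2 fold change in mutants was -0.08 ± 0.63. Day 7 against day 0, the log2 fold change of Igha was 1.60 ± 0.64 in wild type (edgeR unadjusted p = 0.0380, adjusted p = 0.269). In mutants it was -0.39 ± 0.63 (edgeR adjusted p = 0.738). The difference between these log2 fold changes was -1.99 ± 0.90 (edgeR unadjusted p = 0.0578, adjusted p = 0.99997).

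Igkc, the kappa light chain that pairs with any heavy class, was at 2739.8 and 4089 CPM in wild type against 6745 and 7920.0 CPM in mutants on day 0, and 1183 and 4030.0 CPM in wild type against 2751 and 7026 CPM in mutants on day 7. Unirradiated mutants exceeded wild type in both libraries, and the irradiated groups overlapped. The log2 fold change was 1.10 ± 0.68 without irradiation (edgeR adjusted p = 1, and 0.0698 in the fit of the 4 libraries alone) and 0.91 ± 0.68 after it. With each library left out in turn, the second of these ran from 0.0171 to 2.04, lowest without replicate 2 of the irradiated mutants and highest without replicate 2 of irradiated wild type. Igkc counts per heavy constant count were 0.478 and 0.629 in wild type against 0.572 and 0.605 in mutants on day 0, and 0.552 and 0.631 in wild type against 0.766 and 0.901 in mutants on day 7. Both irradiated mutant libraries lay above the 6 others, which spanned 0.478 to 0.631. This ratio, tested after its values had been seen, was compared between irradiated genotypes with an exact two-sided permutation p of 0.333, the smallest that 2 against 2 allows.

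The lambda light-chain genes, which stand outside the 9 members, were summed to set Igkc against the other light chain. Of kappa and lambda constant counts, lambda made up 19.6% and 16.3% in wild type against 8.27% and 7.14% in mutants on day 0, and 16.8% and 17.7% in wild type against 6.06% and 7.11% in mutants on day 7. All 4 mutant libraries were below all 4 wild-type ones, at 7.14% ± 0.903 against 17.6% ± 1.46 (SD over 4 libraries each). The exact two-sided permutation p was 0.0556 within irradiation state and 0.0286 without strata, each the smallest possible, with 0.111 and 0.0857 after adjustment over 6 ratios. All 6 ratios were tested after their values had been seen. Lambda itself was at 608 and 609 CPM in unirradiated mutants against 668 and 793 CPM in unirradiated wild type, a narrower gap than that of Igkc. The balance within lambda differed as well, with 0.738 ± 0.0903 Iglc1 counts per Iglc2 count in mutants and 0.345 ± 0.102 in wild type (SD, 4 libraries each), with no overlap and the same exact permutation p-values. Iglc1 shares no window of 50 bases with Iglc2 or Iglc3, whereas Iglc2 shares 7.65% of its windows with Iglc3.

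**Figure D2:**
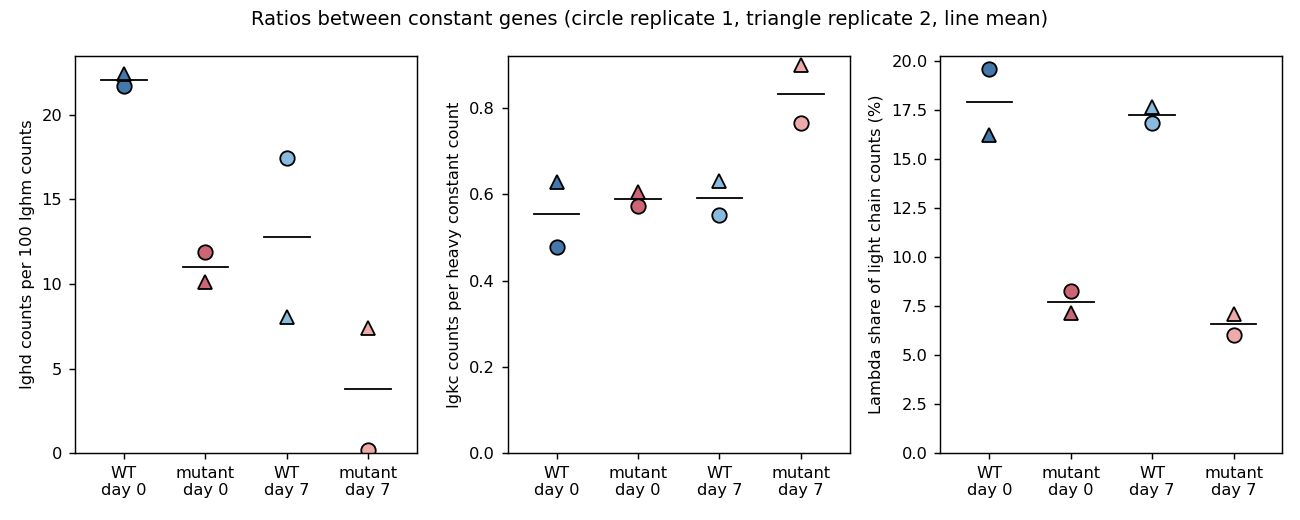
Counts of Ighd per 100 counts of Ighm, Igkc counts per heavy constant count, and the lambda share of light-chain constant counts (%) in every library, with circles for replicate 1, triangles for replicate 2 and lines for group means. The lambda share separates the genotypes in both irradiation states, at 6.06% to 8.27% in mutants and 16.3% to 19.6% in wild type.

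Without irradiation, the question was how mutant spleens differed from wild type. Both mutant libraries held more Ighg1, Ighg2b, Ighg2c and Igha, by 3.85 to 18.9 times for the IgG genes among these and 3.74 times for Igha, less Ighd, and about as much Ighm. Together the 9 genes took 0.990% and 1.14% of all counts in wild type and 2.19% and 2.38% in mutants. The groups did not overlap for 8 members, 7 higher in mutants (Ighg3, Ighg1, Ighg2b, Ighg2c, Ighe, Igha and Igkc) and Ighd lower, where 20.8% and 25% of all 17327 tested genes did not overlap in those directions. The median log2 fold change of the 9 genes was 1.10, against -0.02 over all genes. In the edgeR fit of all 8 libraries 0 members were called at an adjusted p of 0.05, as were 0% of all genes, while 2 members and 2.24% of all genes had an unadjusted p under 0.05. In the fit of the 4 unirradiated libraries, which leaves out the widely spread irradiated replicates, 5 members were called higher (Ighg3, Ighg1, Ighg2b, Ighg2c and Igha) where 2.27% of all genes were, and Ighd was called lower where 0.546% were. That fit has too few libraries to estimate the spread well, so its calls are less secure than those of the main fit. DESeq2 on all 8 libraries called 1 member, Ighg1, and the share of all genes it called is not given here.

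After irradiation the genotypes overlapped in all 9 members, where 10.4% of all genes were higher without overlap and 7.46% lower. The median log2 fold change of the members was 0.46, against 0.02 over all genes. Ighg2c alone had an unadjusted edgeR p under 0.05, as had 4.02% of all genes, and 0 members and 0% of genes were called. DESeq2 called 0 members too. Leaving out 1 irradiated mutant library left 1 library in that group, so only log2 fold changes are given. That of Ighg2c was 2.89 ± 1.06 in all 8 libraries, 3.77 without replicate 1 and 0.58 without replicate 2. The log2 fold change of Ighd was -1.16 ± 1.06 in all 8 libraries, -0.17 without replicate 1 and -4.99 without replicate 2. The mutant replicates lay far apart: replicate 1 held 0.181 times the Ighg1 of replicate 2, 0.118 times its Ighg2c and 0.0381 times its Ighd, but 1.28 times its Ighm. In wild type, replicate 1 held 0.0945 times the Ighg1, 0.317 times the Ighm and 0.685 times the Ighd of replicate 2, so Ighm was lower in replicate 1 there and higher in replicate 1 of the mutants.

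The irradiation comparisons asked what 4 Gy and 7 days changed in each genotype, with day, sex and irradiation changing together. In wild type, Ighm, Ighd, Ighg2b, Ighg2c and Ighe were lower in both irradiated libraries than in either unirradiated one, and Igha was higher. That is 5 members lower where 27.8% of all genes were, and 1 higher where 29.7% were. The median log2 fold change of the members was -1.32, against 0.09 over all genes. In the edgeR fit 0 members were called, against 0.0577% of all genes (0.0115% higher and 0.0462% lower), and Ighm, Ighe and Igha had unadjusted p-values under 0.05, as had 17.3% of genes. With each library left out in turn, Ighm ran from -2.46 to -0.81 and Igha from 0.79 to 2.12 on the log2 scale, both lowest without replicate 2 of irradiated wild type. With only the 4 wild-type libraries fitted, 1 member was called, Ighd, lower where 3.34% of all genes were, and 0 were called higher where 3.62% were. In mutants, Ighm, Ighd, Ighg1, Ighg2b, Ighg2c and Ighe were lower in both irradiated libraries, 6 members where 25.7% of all genes were lower, and 0 were higher where 26.9% were. Here the median was -1.38, against 0.15 over all genes. Again 0 members were called, against 0.6% of all genes (0.254% higher and 0.346% lower), and the nearest was Ighg1 at -3.81 ± 1.17 (edgeR unadjusted p = 0.0116, adjusted p = 0.133). Unadjusted p-values under 0.05 were found for Ighd and Ighg1, as for 22.1% of genes. DESeq2 called these 2, with its share of all genes not given here. Leaving out 1 irradiated mutant library left 1 library in that group, so only log2 fold changes are given. In wild type, Ighd, Ighg2c and Ighe were at -2.56, -2.40 and -3.46 without mutant replicate 1. Without mutant replicate 2 they were at -2.56, -2.39 and -3.45. In mutants, Ighd, Ighg1, Ighg2b, Ighg2c and Ighe were at -1.83, -3.11, -0.83, -0.60 and -0.58 without replicate 1. Without replicate 2 they were at -6.64, -5.67, -3.89, -3.78 and -5.39.

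**Figure D3:**
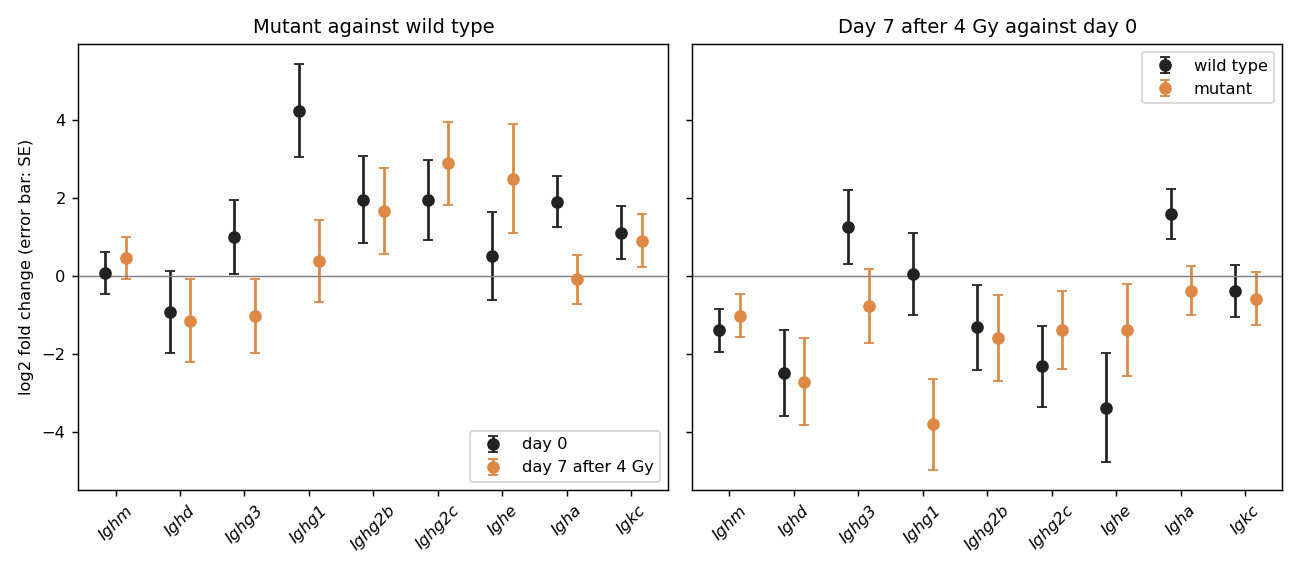
Log2 fold changes of the 9 genes from the edgeR fit of all 8 libraries, with bars of 1 SE, for mutants against wild type (left) and for day 7 after 4 Gy against day 0 (right). Ighg1 shows the widest gap between the unirradiated genotypes, at 4.24 ± 1.19, and Ighd is below 0 in all 4 contrasts.

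The interaction and the averaged genotype effect were tested on the same fit. No member was called in either, nor was any other gene (0%). For the interaction, 1 member had an unadjusted p under 0.05, Ighg1, where 1.6% of all genes had, and its value ran from -5.65 to -1.33 with each library left out in turn, lowest without replicate 2 of the irradiated mutants and highest without replicate 2 of irradiated wild type. For the averaged genotype effect 3 had, Ighg1 at 2.31 ± 0.77, Ighg2b at 1.82 ± 0.78 and Ighg2c at 2.42 ± 0.73 on the log2 scale, where 4.33% of all genes had. The same omissions gave 1.44 to 3.58 for Ighg1, 0.73 to 3.03 for Ighg2b and 1.27 to 3.22 for Ighg2c, with the lowest and highest values without the same libraries. Without replicate 1 of the irradiated mutants, which leaves 1 library in that group, the averaged effect of Ighg2c was 2.87 and that of Ighd -0.54. Without replicate 2 they were 1.27 and -2.95. DESeq2 called Ighg1 (adjusted p = 0.0473) and Ighg2c (adjusted p = 0.0150) in the averaged effect, and the share of all genes it called is not given here.

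Isotype composition was then taken as each gene's share of the summed heavy constant counts, which numbered 23787 to 281159 a library. Exact 95% binomial (Clopper-Pearson) intervals of these shares were at most 1.25 percentage points wide, and they cover counting error only. Ighm made up 55.7% and 53.999% in wild type against 28.04% and 29.002% in mutants on day 0, and 28.6% and 30.3% in wild type against 54.6% and 19.7% in mutants on day 7. The lower share of unirradiated mutants, -26.3 points against wild type, stood beside nearly equal Ighm CPM. Replicate 1 of the irradiated mutants held an Ighm share between those of the unirradiated wild-type libraries, and replicate 2 held the lowest of all. Ighd made up 12.1% and 12.1% in wild type against 3.34% and 2.93% in mutants on day 0, and 4.99% and 2.45% in wild type against 0.120% and 1.45% in mutants on day 7. Wild-type libraries without irradiation had the highest Ighd shares, and within each irradiation state the mutants lay lower.

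Switched classes, that is all heavy genes but Ighm and Ighd, made up 32.2% and 33.9% in wild type against 68.6% and 68.1% in mutants on day 0, and 66.4% and 67.3% in wild type against 45.3% and 78.8% in mutants on day 7. Unirradiated mutants were above unirradiated wild type by 35.3 points, and irradiated wild type was above it by 33.8 points, which put these groups at similar totals. Their make-up differed. IgG genes together took 23.3% and 18.9% in wild type against 48.9% and 43.4% in mutants on day 0, and 6.23% and 17.3% in wild type against 11.6% and 40.1% in mutants on day 7. Igha took 8.86% and 14.96% in wild type against 19.7% and 24.6% in mutants on day 0, and 60.2% and 50.01% in wild type against 33.7% and 38.7% in mutants on day 7. These are shares of counts, not scaled by gene length. For switched, IgG and Igha shares, the genotypes on day 0 did not overlap, nor did day 0 and day 7 in wild type, and each of these differences had an exact two-sided permutation p of 0.333, the smallest that 2 against 2 allows.

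Over all 8 libraries, Igha shares were higher after irradiation by 28.6 points with no overlap between the 4 irradiated and 4 unirradiated libraries (exact permutation p = 0.0556 within genotype, the smallest possible, and 0.222 adjusted over 8 isotypes). The IgG share was lower by 14.9 points and the Ighd share by 5.36 points, each with the same exact permutation p, and both overlapped between the pooled states. For genotype, Ighg2c shares were higher in mutants by 11.1 points and Ighd shares lower by 5.94 points (exact permutation p = 0.0556 each, 0.222 adjusted over 8 isotypes). Genotype effects on the Igha share had opposite signs, 10.2 points without irradiation and -18.9 points after it. The latter stood beside a genotype log2 fold change of Igha levels of -0.08 ± 0.63 after irradiation. Without replicate 1 of the irradiated mutants, the switched share of mutants was above wild type after irradiation by 12.002 points, where both libraries together gave -4.78.

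**Figure D4:**
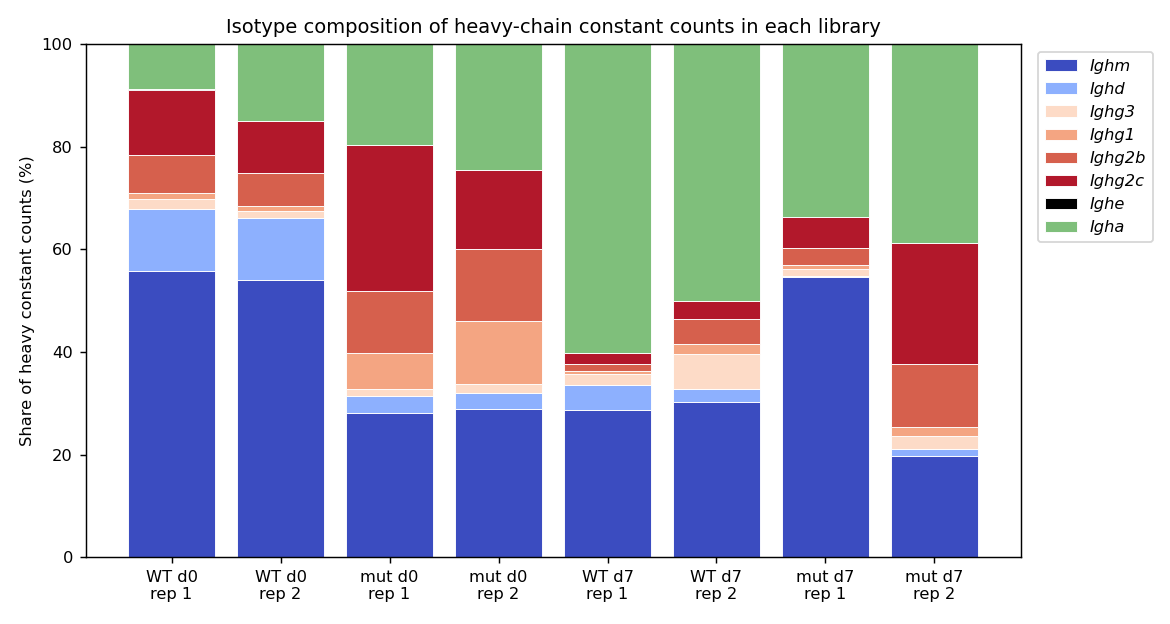
Share (%) of each heavy constant gene in the summed heavy constant counts of each library, as stacked bars that add to 100. Blue (Ighm and Ighd) fills most of the unirradiated wild-type bars, red (IgG) reaches 48.9% and 43.4% in unirradiated mutants, and green (Igha) reaches 60.2% and 50.01% in irradiated wild type.

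Within IgG, subclass shares were compared next, with exact intervals at most 4.89 points wide. Ighg1 made up 4.89% and 5.13% in wild type against 14.2% and 28.2% in mutants on day 0, and 8.56% and 10.99% in wild type against 6.35% and 4.67% in mutants on day 7. Both unirradiated mutant libraries stood above the 6 others. Ighg3 made up 8.45% and 7.56% in wild type against 3.08% and 4.08% in mutants on day 0, and 33.9% and 40.2% in wild type against 12.2% and 6.06% in mutants on day 7. Both irradiated wild-type libraries stood far above the 6 others. Ighg2c made up 54.4% and 53.8% in wild type against 57.99% and 35.2% in mutants on day 0, and 34.1% and 21.005% in wild type against 51.99% and 58.7% in mutants on day 7. Both irradiated wild-type libraries had the lowest Ighg2c shares. Per kilobase of merged exons, Ighg2c stood at 34.3 CPM against 18.05 CPM for Ighg3 in replicate 1 of irradiated wild type, and at 175 CPM against 177 CPM in replicate 2. Per kilobase of secreted transcript the values were 40.97 CPM against 41.9 CPM and 208 CPM against 410.0 CPM, so in replicate 1 their order depends on the length used. Ighg2b was steadier, from 23.5% to 33.5% over all 8 libraries.

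Levels of all 9 genes were then compared per length, as CPM per kilobase of merged annotated exons. In unirradiated wild type Igkc led at 6418 ± 1793 (SD, n = 2), followed by Ighm at 1776 ± 121, Ighg2c at 523 ± 33.8, Ighd at 389 ± 34.6, Igha at 277 ± 123, Ighg2b at 157 ± 4.60, Ighg3 at 40.9 ± 5.51, Ighg1 at 24.7 ± 0.559 and Ighe at 2.08 ± 0.743. Of the neighbours in this order, Ighd and Igha, and Igha and Ighg2b, did not differ beyond the spread of Igha. In unirradiated mutants Igkc led at 13783 ± 1561, and Ighg2c at 2015 ± 717 and Ighm at 1882 ± 184 did not differ beyond their spread. Next came Igha at 1037 ± 239, Ighg2b at 611 ± 111, Ighg1 at 468 ± 215, Ighd at 205 ± 3.92, Ighg3 at 81.5 ± 15.3 and Ighe at 2.97 ± 0.467, with Ighg2b and Ighg1 overlapping. In the irradiated groups Igkc was again first and Ighe last, and the SDs of Ighg1, Ighg2b and Ighg2c were near or above their means. Merged exons include the membrane exons, and with the secreted transcript as length Igha at 2516 ± 579, Ighg2c at 2405 ± 855 and Ighm at 2378 ± 232 CPM per kilobase did not differ beyond their spread in unirradiated mutants. In unirradiated wild type that length put Ighd at 922 ± 82.0, Igha at 673 ± 299 and Ighg2c at 624 ± 40.3. Ighd then lay above Ighg2c, so their order depends on the length used.

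Genes of the cells that carry these transcripts were read from lists of markers. Plasma cell genes (18 tested) had a mean log2 CPM of 5.66 and 5.90 in wild type against 6.57 and 6.52 in mutants on day 0, and 5.07 and 6.22 in wild type against 5.30 and 6.31 in mutants on day 7. Both unirradiated mutant libraries were above all 6 others. In the unirradiated comparison 16 of 18 had a log2 fold change above 0, as had 46.7% of all genes, with a median of 0.78. In the fit of those 4 libraries 8 were called higher, where 2.27% of all genes were, and the fit of all 8 called 0. The surface proteoglycan Sdc1 was at 10.8 and 12.4 CPM in wild type against 33.1 and 30.5 CPM in mutants, a log2 fold change of 1.46 ± 0.45 (edgeR adjusted p = 1, and 0.00222 in the fit of the 4 libraries alone). The joining chain Jchain, which links IgM and IgA into polymers, was at 625 and 763 CPM in wild type against 2184 and 1788 CPM in mutants, and the transcription factor Xbp1 was at 138 and 167 CPM against 331 and 334 CPM. Their edgeR adjusted p-values in the fit of the 4 libraries alone were 0.00489 and 0.00515, and both were 1 in the fit of all 8.

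B cell genes (22 tested) had a mean log2 CPM of 7.98 and 8.15 in wild type against 7.47 and 7.40 in mutants on day 0, and 5.90 and 6.73 in wild type against 3.40 and 6.44 in mutants on day 7. The order of the libraries was that of Ighd, with replicate 1 of the irradiated mutants lowest. In that library every gene of the list stood below its levels in unirradiated wild type except Cd24a, which was at 10768 CPM and which red cell precursors also express. In the unirradiated comparison 0 of 22 had a log2 fold change above 0 in mutants, where 46.7% of all genes had. Their median was -0.52. The fit of all 8 libraries called 0, and the fit of the 4 unirradiated ones called 9 lower, where 0.546% of all genes were. The IgM receptor Fcmr was at 226 and 284 CPM in wild type against 113 and 109.8 CPM in mutants (edgeR adjusted p = 0.00500 in that fit), and the B cell receptor subunit Cd79a was at 712 and 1032 CPM against 376 and 433 CPM (adjusted p = 0.0255). Granulocyte genes also differed between the unirradiated genotypes in that fit, with 15 of 15 called higher in mutants, where 2.27% of all genes were. In the fit of all 8 libraries their median log2 fold change was 2.46, and 0 were called. What part these cell types had in the values of the constant genes was not tested.

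Genes of the switching process itself were read in the same way. Of 29 class switch machinery genes tested, 16 had a log2 fold change above 0 in unirradiated mutants, with a median of 0.02, and 0 were called in either edgeR fit (smallest unadjusted p over all 8 libraries 0.0995, Dclre1c), although 5 constant genes of switched classes were called in the fit of those 4 libraries. Germinal centre genes, which mark the follicle structures where B cells mutate and switch, had 0 of 12 above 0, with a median of -0.33 and 0 called (smallest unadjusted p 0.308, Efnb1).

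**Figure D5:**
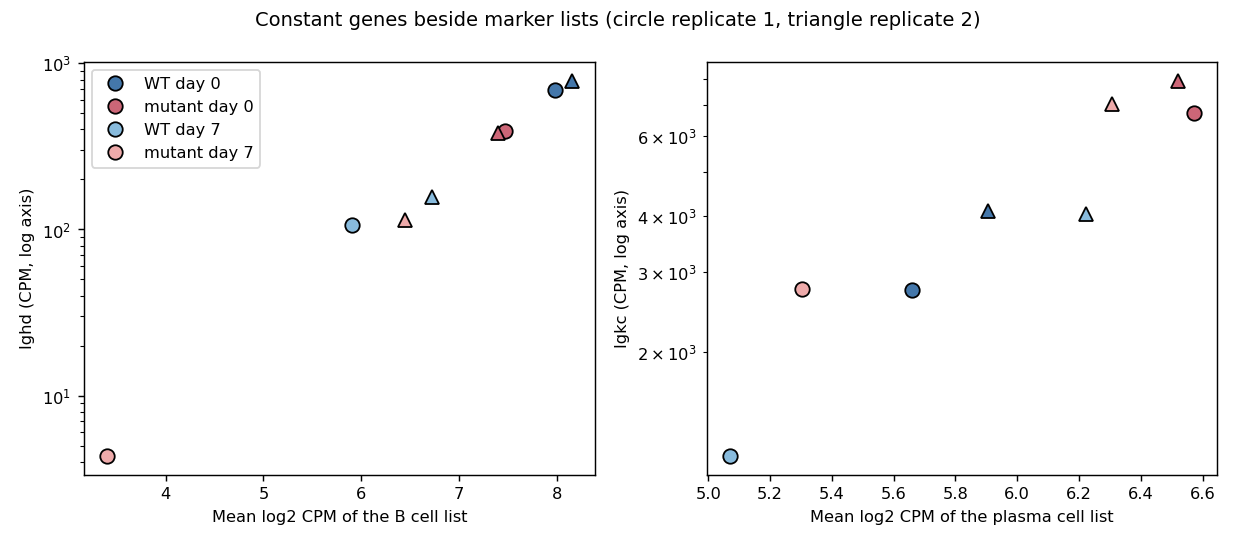
Left, Ighd (CPM, log axis) against the mean log2 CPM of 22 B cell genes; right, Igkc (CPM, log axis) against that of 18 plasma cell genes, with 1 point a library. Replicate 1 of the irradiated mutants lies lowest on both axes of the left panel, and both unirradiated mutant libraries lie farthest to the right in the right panel.

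Finally, each member's pattern over the 8 libraries was set beside those of 10886 genes with a mean of at least 5 CPM, by Pearson r of log2 CPM. These r values describe 8 libraries that share groups, and they carry no test. The closest for Ighd were Siglecg (r = 0.997), Tmem163 (0.996) and Il5ra (0.995), and for Ighg2b Cep55 (0.992), Rab3d (0.989) and Txndc5 (0.983). For Ighg2c they were Nceh1 (0.993), Lgalsl (0.985) and Fndc3a (0.983), for Ighe Rgs3 (0.988), Vgll4 (0.986) and Cd226 (0.986), and for Igkc Tnfrsf1a (0.974), Ccr1 (0.965) and Derl3 (0.956). For Ighm they were Fuk (0.977), AB124611 (0.964) and Ighmbp2 (0.962), for Ighg1 Ccr2 (0.976), Alox5ap (0.969) and Mapk13 (0.954), for Igha Cpeb2 (0.971), B4galt6 (0.941) and Hsp90b1 (0.934), and for Ighg3 Pde4a (0.945), Rnf169 (0.937) and Tmtc4 (0.930). Among the members themselves, the r of Ighg2b was 0.969 with Ighg2c and 0.955 with Igkc, and the r of Igha was -0.05 with Ighm and -0.09 with Ighd.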

How the data were processed

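The deposited file held counts of reads per gene, not normalised, made by the authors with Trim Galore, Subread and featureCounts, per the submitters' processing notes. Those notes name hg38 and mm10 for the whole submission. The sources used here give no versions, annotation, strand setting or treatment of reads with several matches. Every column was tied to its sample by title. A symbol from GENCODE M21 (GRCm38) was found for 52403 of 52636 identifiers. A culture protocol for human cells that stands among the labels was not used.

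Genes were filtered with filterByExpr (min.count 10, min.total.count 15), which kept 17327 genes and all 9 members, and scaled by TMM. Differences were tested with edgeR 4.0.16 (quasi-likelihood F test; limma 3.58.1, R 4.3.3) on all 8 libraries with 1 term a group, 6 contrasts, Benjamini-Hochberg adjustment over all genes and a threshold of 0.05. The procedure was tested on simulated data. SEs are the absolute log2 fold change over the square root of F. Shares and ratios of counts were compared by exact two-sided permutation tests over libraries (scipy 1.17.1). A 2 against 2 comparison cannot reach a p below 0.333. Sequences and lengths came from the transcripts of GENCODE M21, and identities from global alignment (Biopython 1.88).

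Alternatives were a fit of only the libraries compared, DESeq2 1.42.0, limma-voom with library weights, RLE scaling, no filter, library sizes without immunoglobulin and T cell receptor genes, a replicate block, each library left out, and, for shares, counts per length. The members, the gene lists and the ratios were chosen with earlier results of these data known. All 9 members are named, with at most 4 genes a list by smallest p in the contrast at hand, the marker genes of the tissue check, and the 3 genes most like each member. Gene lists stood for plasma cells, B cells, germinal centre, class switch machinery and signals, Fc receptors, light chains and other cells of the spleen and its surroundings, and some of their genes are not reported here. Depth was 12100784 to 19455470 counts a library, and a floor of 3 counts was 0.131 to 0.350 CPM. The labels do not say that a group's samples are separate mice, so p-values measure only the spread between samples, which may be technical.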

Additional observations from a re-analysis of the deposited data

Results flagged for a closer look

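The share of Igha in heavy constant counts moved in opposite directions with genotype in the 2 irradiation states. Without irradiation it was higher in mutants by 10.2 points, with 19.7% and 24.6% against 8.86% and 14.96% in wild type. At day 7 after 4 Gy the difference was -18.9 points, with 33.7% and 38.7% in mutants against 60.2% and 50.01% in wild type. The share was flagged by this pattern: no overlap between the genotypes in either state, with opposite signs in the 2 states. Levels, shares and ratios were all scanned for it, so the lack of overlap was fixed by the choice and is no separate support. The difference between these genotype effects was not tested. A share also moves with the other heavy genes in its total. Igha levels themselves had a genotype log2 fold change of 1.90 ± 0.65 without irradiation and -0.08 ± 0.63 after it. Their interaction had a log2 value of -1.99 ± 0.90 (edgeR adjusted p = 0.99997).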

How the results depend on the processing

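The number of members called rests on the fit. Against 0 in every contrast, the fit of only the libraries compared called 6 for genotype on day 0 and 1 for irradiation in wild type, DESeq2 called 1 for genotype on day 0, 2 for irradiation in mutants and 2 for the averaged genotype effect, and limma-voom with library weights called 3 for genotype on day 0 and 2 for irradiation in wild type. Without the filter on low counts the fit called 4 for genotype on day 0, 2 for genotype on day 7, 6 for irradiation in wild type, 4 for irradiation in mutants, 1 for the interaction and 3 for the averaged genotype effect. Shares of all genes called by DESeq2, by limma-voom and without the filter are not given here. These counts therefore do not show whether members were called more often than other genes. RLE scaling and library sizes without immunoglobulin and T cell receptor genes called 0 in all 6 contrasts. Leaving out each library in turn called 0 to 1 members for genotype on day 7, 0 to 3 for irradiation in wild type, 0 to 5 for irradiation in mutants and 0 to 1 for the averaged genotype effect, with calls only where an irradiated mutant library was left out. Each of the fits with calls kept 1 library of the irradiated mutants, and the shares of all genes they called are not given here. The calls with a library left out therefore do not show whether members were called more often than other genes. The cause of the differences between fits was not tested.

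The labels do not say whether equal replicate numbers pair the libraries. Deviations from the group means correlated between groups at r = 0.03 to 0.47, positive throughout but not above 0.1 in every pair. The highest r was between irradiated wild type and irradiated mutants. Whether libraries of equal number shared a batch was not tested. With the replicate block 0 members were called in any contrast, and of all genes, 253 were called for irradiation in mutants, against 104 without it, and 16 for irradiation in wild type, against 10.

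Of 54 log2 fold changes, 2 changed sign under an alternative other than leaving out a library. Ighg1 for irradiation in wild type, at 0.05, was -0.0220 by DESeq2, -0.78 by limma-voom, -0.0152 with RLE, -0.0446 without the filter and -0.78 with the block. Ighg3 for the averaged genotype effect, at -0.02, was 0.00149 by DESeq2, 0.22 by limma-voom, 0.00368 with RLE and 0.0160 with the block. Shares that changed sign in points were Ighg3 for genotype on day 0 (0.00104) and Ighg1 for genotype on day 7 (-0.0478) with counts per merged exon length, and Ighe for genotype over all 8 libraries, -0.00263 without Ighd in the total and -6.91e-04 per secreted length. Without strata, which ignores the other factor, 2 unadjusted exact permutation p-values fell to 0.0286, the smallest possible. These were the Igha share for irradiation (28.6 points, 0.229 adjusted over 8 isotypes) and the lambda share for genotype (0.0857 adjusted over 6 ratios). Neither was under 0.05 after adjustment.

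Leaving out each library in turn gave log2 fold changes on both sides of 0 for some members. The range for genotype on day 0 was Ighm from -0.0205 to 0.18. Ranges for genotype on day 7 were Ighm from -0.15 to 1.51, Ighg3 from -2.33 to 1.40, Ighg1 from -1.39 to 2.91, Ighg2b from -0.52 to 4.10, Ighe from -1.41 to 7.95 and Igha from -0.95 to 0.71. Ranges for irradiation in wild type were Ighg3 from -1.20 to 2.09, Ighg1 from -2.50 to 0.90 and Igkc from -1.54 to 0.22. The range for irradiation in mutants was Igha from -1.34 to 0.0752. Ranges for interaction were Ighm from -0.23 to 1.42, Ighd from -4.08 to 0.73, Ighg3 from -3.35 to 0.41, Ighg2b from -2.50 to 2.14, Ighg2c from -1.39 to 2.54, Ighe from -1.94 to 7.44 and Igkc from -1.11 to 0.94. Ranges for averaged genotype were Ighm from -0.0333 to 0.80, Ighg3 from -0.66 to 1.20 and Ighe from -0.44 to 4.23. The highest Ighe values compare with 1 irradiated wild-type library at 0 counts and depend on the prior count. Differences in share, in points, also lay on both sides of 0. Ranges for genotype on day 7 were Ighm from -9.74 to 25.2, Ighg1 from -0.595 to 0.769, Ighe from -0.00159 to 0.0370 and class-switched from -21.6 to 12.002. Ranges for irradiation in mutants were Ighm from -8.81 to 26.1, Ighg3 from -0.232 to 0.788, Ighg2c from -15.8 to 1.67, Ighe from -0.0350 to 0.00366 and class-switched from -23.1 to 10.5. The range for irradiation over all 8 libraries was Ighm from -17.1 to 0.337. Ranges for genotype on day 0 were Ighg3 from -0.326 to 0.210 and Ighe from -0.0340 to 2.72e-04. The range for irradiation in wild type was Ighg1 from -0.520 to 0.844. The range for genotype over all 8 libraries was Ighe from -0.00922 to 0.0101. At these depths counting error is small beside the spread of levels between irradiated replicates, except for Ighe. It is not small everywhere without irradiation. The Ighd shares of unirradiated wild type, 12.10% and 12.08%, lay within each other's exact 95% intervals (11.9% to 12.3% for each).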

Other observations

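Genes of receptors that bind the Fc part of antibodies showed no common direction between genotypes without irradiation. Of 15 Fc receptor and transport genes tested, 8 had a log2 fold change above 0 in unirradiated mutants, with a median of 0.14. In the fit of the 4 unirradiated libraries, 3 were called higher and 2 lower, where 2.27% and 0.546% of all genes were. The edgeR fit of all 8 called 0. Fcgr4, the receptor for IgG2 subclasses, was at 15.5 and 13.0 CPM in wild type against 25.3 and 27.8 CPM in mutants on day 0, and 15.1 and 15.01 CPM in wild type against 59.2 and 68.0 CPM in mutants on day 7. Both irradiated mutant libraries stood above the 6 others and close together, although the same libraries differed widely in their IgG counts. The log2 fold change of Fcgr4 in mutants was 0.89 ± 0.26 without irradiation and 2.08 ± 0.27 after it (edgeR unadjusted p = 0.00895 and 5.91e-05, adjusted p = 1 and 0.812). Fcgr3 was at 33.7 and 28.02 CPM in wild type against 50.8 and 50.6 CPM in mutants on day 0, and 17.8 and 18.7 CPM in wild type against 59.9 and 73.7 CPM in mutants on day 7. The high-affinity receptor Fcgr1 was at 11.7 and 8.60 CPM, 22.7 and 24.5 CPM, 6.31 and 5.48 CPM, and 17.6 and 17.6 CPM in the same order of groups. For Fcgr4, Fcgr3 and Fcgr1 the mutants lay above wild type in both irradiation states. Other genes of the list lay lower in mutants, and of these a pair that the B cell list also holds was chosen after its values were seen. Fcer2a, the low-affinity IgE receptor, was at 217 and 222 CPM in wild type against 89.98 and 71.9 CPM in mutants on day 0, and 7.39 and 31.6 CPM in wild type against 0.117 and 19.9 CPM in mutants on day 7, where the groups overlapped. Fcmr, the IgM receptor, was at 226 and 284 CPM in wild type against 113 and 109.8 CPM in mutants on day 0, and 55.9 and 78.7 CPM in wild type against 2.92 and 50.1 CPM in mutants on day 7. Macrophage and monocyte genes, cells that carry these receptors, had 11 of 15 log2 fold changes above 0 without irradiation (median 0.24) and 15 of 15 after it (median 1.13), and their part in the receptor values was not tested.

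Signals that direct switching showed no common direction without irradiation. Of 22 genes tested, 11 had a log2 fold change above 0 in mutants, with a median of -0.00. In the fit of the 4 unirradiated libraries 1 was called higher and 1 lower, where 2.27% and 0.546% of all genes were. Tlr7, a sensor of single-stranded RNA in B cells and myeloid cells, was at 37.5 and 33.8 CPM in wild type against 64.9 and 52.5 CPM in mutants (log2 fold change 0.72 ± 0.32, edgeR adjusted p = 1, and 0.0424 in that fit). Il10 was at 0.879 and 0.822 CPM in wild type against 1.70 and 2.05 CPM in mutants (log2 fold change 1.13, edgeR adjusted p = 1). Both genes named here were higher in mutants, and the gene called lower is not reported here.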
